A study of Mus musculus with 17 samples.

Results

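The genes described here are 9 transcripts widely used as readouts of alternative macrophage activation in mice: Retnla, Arg1, Chil3, Ear2, Mrc1, Cd163, Mgl2, Clec10a and Folr2. They were chosen by name and not by a threshold, but with earlier results of these data known. They make up 9 of the 30406 gene identifiers shared by all 17 libraries. The data are droplet-based single-cell RNA-Seq counts of unique molecular identifiers (UMIs) in GFP+ cells sorted from skin (8 libraries) or kidney (9 libraries). All mice were 8 weeks old and carried PDGFRb-Cre and the Z/EG reporter. They were either wild-type for the SARA transgene (SARAWT) or carried a human ZFYVE9 cDNA that Cre switches on (SARATg). Skin was taken after subcutaneous PBS (SARAWT 3, SARATg 1) or bleomycin at 20 mg/kg 3 times a week for 2 weeks (SARAWT 3, SARATg 1), a schedule given by the labels, while the methods of the study describe daily injection. Kidney was taken after intraperitoneal vehicle (SARAWT 3, SARATg 2) or aristolochic acid (AA) at 5 mg/kg 3 times a week for 3 weeks (SARAWT 3, SARATg 1). In this line Cre activity is found in leukocytes as well as in pericytes, and the sort held both. Kidney libraries also contained many proximal tubule cells, and GFP itself was not measured here.

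Alternative activation is the state that macrophages take on when interleukin-4 or interleukin-13 binds the interleukin-4 receptor and the transcription factor STAT6 enters the nucleus. It is known from helminth infection, allergy, wound repair and fibrosis, where such macrophages clear debris, secrete matrix-binding proteins and shift arginine from nitric oxide to ornithine and proline. The 9 genes fall into secreted or cytosolic products and surface receptors. Retnla encodes the secreted protein RELMα, Arg1 the enzyme arginase, Chil3 the chitinase-like lectin Ym1, and Ear2 a ribonuclease of the eosinophil-associated family. Mrc1 encodes the mannose receptor, Cd163 the scavenger receptor for hemoglobin bound to haptoglobin, Mgl2 and Clec10a paired galactose-type lectins, and Folr2 a folate receptor. Several of the receptors, Folr2, Cd163 and Mrc1 among them, are also textbook genes of tissue-resident macrophages.

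On build GRCm38, Retnla lies on chromosome 16 (48842551 to 48844461, plus strand), Chil3 on chromosome 3 (106147554 to 106167564, minus strand) and Mrc1 on chromosome 2 (14229392 to 14332057, plus strand). Mgl2 (70130329 to 70137550) and Clec10a (70156197 to 70170834) are neighbors on the plus strand of chromosome 11. Of the 9 genes, 7 had an entry in the RefSeq promoter table of build GRCm38.p6, with 250 bases before and 50 bases from the start of transcription on. These stretches were searched on both strands for the palindromic motifs TTCNNNNGAA, whose spacing is known from STAT6 sites, and TTCNNNGAA, the spacing of other STAT factors; the spacings differ, so no site can match both. The 3 promoters below are shown because the first contains the longer motif, the second the shorter motif, and the third neither, although its gene had one of the most similar patterns to Retnla over cell classes. Capitals mark the motif match.
Retnla, chr16:48842359-48842658, plus strand: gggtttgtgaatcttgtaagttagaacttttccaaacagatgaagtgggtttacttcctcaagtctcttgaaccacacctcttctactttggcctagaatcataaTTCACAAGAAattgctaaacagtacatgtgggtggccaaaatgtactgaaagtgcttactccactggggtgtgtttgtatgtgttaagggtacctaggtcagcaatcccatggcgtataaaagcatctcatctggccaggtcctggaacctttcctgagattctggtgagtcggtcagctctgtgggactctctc
Chil3, chr3:106167515-106167814, minus strand: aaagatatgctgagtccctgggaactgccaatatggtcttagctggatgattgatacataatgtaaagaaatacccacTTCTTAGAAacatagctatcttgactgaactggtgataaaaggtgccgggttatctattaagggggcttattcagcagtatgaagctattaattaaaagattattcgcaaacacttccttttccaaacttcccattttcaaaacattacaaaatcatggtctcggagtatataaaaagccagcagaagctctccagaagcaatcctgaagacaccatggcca
Mrc1, chr2:14229164-14229463, plus strand: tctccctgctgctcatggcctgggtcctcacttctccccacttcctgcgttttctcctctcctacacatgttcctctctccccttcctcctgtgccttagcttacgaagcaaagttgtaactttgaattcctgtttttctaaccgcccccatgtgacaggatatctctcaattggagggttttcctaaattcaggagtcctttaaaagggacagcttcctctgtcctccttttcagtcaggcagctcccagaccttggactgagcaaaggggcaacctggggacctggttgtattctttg
The Retnla match began 145 bases upstream of the RefSeq start and the Chil3 match 172 bases upstream. For Retnla and Mrc1 the RefSeq start lies inside the gene coordinates given above, so distances from those coordinates would differ. Of 32851 mouse promoters of the same length, 6.95% held TTCNNNNGAA and 8.30% held TTCNNNGAA. No match was found in the windows of Mrc1, Mgl2, Ear2, Cd163 or Folr2.

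Macrophages were gated on 10 genes that are not among the 9, led by the complement genes C1qa, C1qb and C1qc, and 10099 macrophages were found (4729 in skin and 5370 in kidney) among 26020 myeloid cells and 91829 cells in all. The macrophages of each library had a median of 8 to 10 of the 10 markers and of at most 2 of the 10 markers of any non-myeloid lineage, and 60.4% to 96.0% of them had a UMI of Ptprc, the gene of the leukocyte antigen CD45. Their median depth per library was 3764 to 17143 UMIs. Just inside the gate, 140 macrophages had the minimum of 4 markers and 676 led the next myeloid class by the minimum of 2 markers.

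Some libraries departed from their labels or from the rest of their group. Zfyve9, the mouse gene of SARA, stood at 621 CPM (UMIs per 1000000 UMIs of the cells summed) in the library labelled skin SARAWT PBS 3, above the 314 and 224 CPM of the SARATg skin libraries, and at 164 CPM in the library labelled kidney SARAWT AA 1, against 20.6 CPM in the one labelled SARATg AA. Human ZFYVE9 was listed in 4 skin libraries and was at 845 CPM in SARAWT PBS 1 and at 89.3 to 190 CPM in SARAWT PBS 2 and bleomycin 1 and 2. SARAWT PBS 2, with 781 cells, shared 59.3% of its kept barcodes with bleomycin 2 and 44.8% with bleomycin 1. Kidney SARAWT vehicle 3 contained 11.8% proximal tubule cells and 45.9% T, NK and innate lymphoid cells, whereas vehicle 1 and 2 contained 73.4% to 78.6% and 3.84% to 4.14%. Its macrophages were closer to those of AA 1 (r = 0.978 over 8661 genes) than to those of vehicle 1 and 2 (r = 0.847 and 0.859), as a description. Xist, transcribed from the inactive X chromosome, stood at 441 to 688 CPM in skin SARAWT PBS 1 and 2 and bleomycin 1 and 2, with Ddx3y, a Y-linked gene, at most at 0.138 CPM. In SARAWT PBS 3, bleomycin 3 and both SARATg skin libraries Ddx3y stood at 61.7 to 97.8 CPM and Xist at most at 0.659 CPM. In skin these transcripts and the length of the gene list divided the libraries in the same way and cannot be told apart. In kidney, Xist was high in SARAWT vehicle 2 and SARATg AA (1411 and 1357 CPM) and at most at 0.502 CPM in the other libraries. Groups keep their labelled names below.

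The question first asked was which myeloid cells carried each transcript in untreated SARAWT tissue. Untreated here means injected with PBS (skin) or vehicle (kidney) and given neither drug. Among the myeloid classes, Mrc1 and Folr2 were highest in macrophages in every untreated library, and Retnla by its mean in both tissues. In kidney vehicle 2, Retnla was at 314 CPM in macrophages and at 373 CPM in the 64 myeloid cells without a class. By their means, Ear2 and Mgl2 in both tissues and Chil3, Clec10a and Cd163 in kidney were highest in another class than macrophages. Among the secreted products, Chil3 in kidney was carried by classical monocytes, the Ly6c2-positive blood monocytes, at 2719, 6088 and 566 CPM in vehicle 1, 2 and 3, against 0, 17.03 and 2.50 CPM in macrophages. No vehicle library overlapped between these classes. Kidney neutrophils had 59.1 to 1036 CPM of Chil3, and over all 9 kidney libraries a median of 45.5% of Chil3 UMIs lay in classical monocytes and 2.47% in macrophages. In skin, mean Chil3 was 41.9 CPM in myeloid cells without a class and 39.9 CPM in macrophages. Only PBS 3 among the skin PBS libraries had at least 10 classical monocytes. There Chil3 stood at 1388 CPM in these monocytes and at 116 CPM in macrophages.

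**Figure D1:**
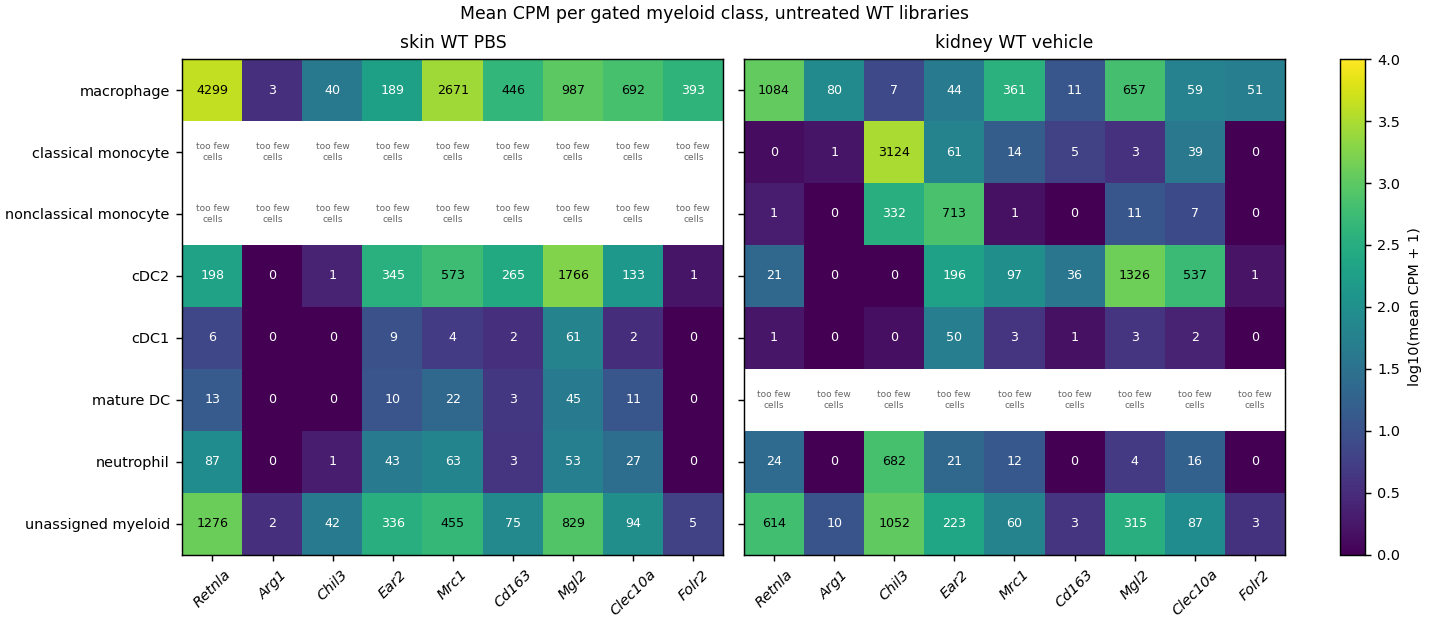
Mean CPM of the 9 genes in gated myeloid classes of untreated SARAWT skin (left, PBS, up to 3 libraries) and kidney (right, vehicle, up to 3 libraries); columns are genes, rows are classes, numbers give the mean CPM, colors give log10(mean CPM + 1), and rows marked as too few cells had at least 10 cells in fewer than 2 libraries. Retnla stood at 4299 CPM in skin and 1084 CPM in kidney macrophages, Chil3 at 3124 CPM in kidney classical monocytes, and Mgl2 at 1766 and 1326 CPM in type 2 dendritic cells.

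Ear2 in kidney was highest in nonclassical monocytes, the patrolling monocytes of the blood, at 681, 767 and 692 CPM in vehicle 1 to 3 against 9.87, 2.18 and 119 CPM in macrophages. Mgl2 was highest in type 2 conventional dendritic cells (cDC2), which present antigen to helper T cells. Skin cDC2 of PBS 1 to 3 contained 1543, 2418 and 1338 CPM of Mgl2 and skin macrophages 1295, 1175 and 492 CPM. Each PBS library was higher in cDC2, and the ranges of the classes did not overlap. In kidney the cDC2 levels of 1099 to 1646 CPM lay above the macrophage levels of 567 to 786 CPM without overlap.

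Clec10a, the neighbor and paralog of Mgl2, had the opposite order in the 2 tissues. Skin macrophages contained 1122, 766 and 189 CPM and skin cDC2 147, 113 and 139 CPM, whereas kidney macrophages contained 79.8, 34.5 and 62.7 CPM and kidney cDC2 729, 584 and 299 CPM. In neither tissue did the ranges of these 2 classes overlap. Skin mast cells also carried Clec10a, at 408 CPM in PBS 1 and 314 CPM in PBS 3, above the cDC2 of these libraries and, in PBS 3, above the macrophages, while PBS 2 had only 4 such cells. Folr2 in skin lay almost wholly in macrophages, where 88.2% to 97.9% of its UMIs were found. It was at or below 1.80 CPM in cDC2 of all 17 libraries. In kidney vehicle 1 and 2 the many proximal tubule cells held 88 and 170 Folr2 UMIs, at 0.905 and 2.18 CPM, and the macrophages 74 and 78 UMIs. Cd163 in skin was split between macrophages (a median of 49.8% of UMIs over 8 libraries) and cDC2 (33.7%). In kidney it was at 64.1, 39.6 and 4.50 CPM in cDC2 of vehicle 1 to 3 and at 14.8, 8.73 and 8.89 CPM in macrophages, so that the ranges overlapped.

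Arg1 was low in untreated skin macrophages, at 0.611 CPM in PBS 1, at 7.13 CPM in PBS 3 and without a UMI in PBS 2, which allows up to 4.69 CPM. In kidney vehicle 1 and 2 it was at 1.65 and 6.55 CPM, and at 232 CPM in vehicle 3. The gate of T, NK and innate lymphoid cells, used otherwise as the background for free RNA, held more Arg1 than the macrophages in 2 untreated skin libraries. Its level there was 124 CPM in PBS 1, 4.46 CPM in PBS 3 and 86.0 CPM in SARATg PBS, while PBS 2 had only 9 such cells, and in SARAWT bleomycin 1 to 3 it was 3.13, 0.808 and 0.931 CPM. Arginase is known from group 2 innate lymphoid cells as well as from macrophages. The remaining 8 genes were at or below 17 CPM in this gate in all 17 libraries.

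A UMI of each gene was looked for per cell to show how widely it was carried. With every cell thinned to 1000 UMIs, 72.9% to 91.2% of macrophages in the 3 skin PBS libraries and 21.3% to 32.2% in the 3 kidney vehicle libraries had an Mrc1 UMI. Without thinning these shares were 88.7% to 98.4% and 56.3% to 82.7%. In the T, NK and innate lymphoid gate the thinned share of Mrc1 was 0.522% to 0.781% in the 2 skin PBS libraries with at least 10 such cells and at most 0.0630% in kidney vehicle, at median depths of 2502 to 7554 UMIs against 4638 to 11474 UMIs in the macrophages. Retnla was less widespread than Mrc1, with thinned shares of 19.6% to 47.0% in skin PBS and 0.679% to 11.7% in kidney vehicle macrophages (24.1% to 63.2% and 0.679% to 18.3% without thinning), and at most 1.04% and 0.567% in the T, NK and innate lymphoid gate.

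Among skin macrophages, cells with Retnla and cells without it differed in which other members they carried. In all 8 skin libraries a larger share of macrophages with a Retnla UMI than without one had an Ear2 UMI, with medians over libraries of 32.8% and 4.17%. Mgl2 followed in 7 of 8 libraries (60.3% and 27.7%). Cd163 was the reverse, at medians of 7.14% in cells with Retnla and 11.99% in cells without it, and higher with Retnla in 1 of 8 libraries. Mrc1 (62.4% and 67.2%) was higher with Retnla in 2 of 8 libraries. In the 4 kidney libraries with enough Retnla-positive cells, Ear2 again was in a larger share of them (41.5% and 1.19%), but there Cd163 was as well (3.40% and 1.20%), in 4 of 4 libraries. Cells of a library share its free RNA, and these shares carry no test.

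**Figure D2:**
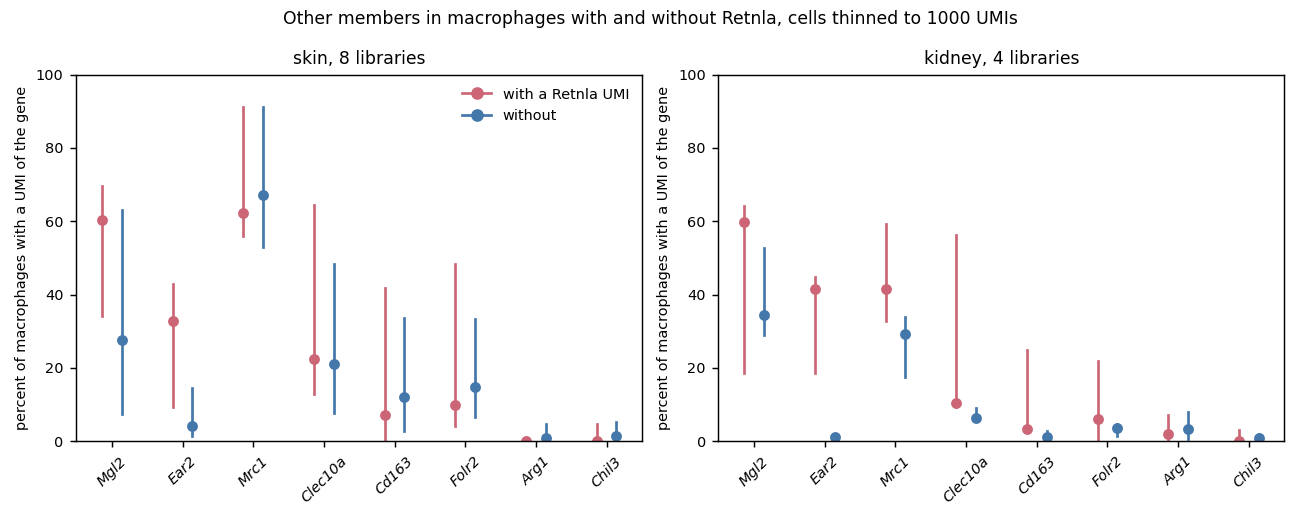
Percent of gated macrophages with a UMI of each other gene, in cells with (red) and without (blue) a Retnla UMI, all thinned to 1000 UMIs; points are medians and bars the lowest and highest library (8 skin, 4 kidney). In skin, Ear2 stood at 32.8% against 4.17% and Cd163 at 7.14% against 11.99%.

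Folr2, Cd163, Mrc1 and Clec10a were detected together in skin. A Folr2 UMI went with a larger share of Cd163-positive cells in 8 of 8 skin libraries (medians 26.0% and 8.36%) and with a smaller share of Ear2-positive cells in 8 of 8 (2.10% and 9.14%). Mrc1 (89.1% and 60.5%) and Clec10a (34.4% and 18.0%) were also in a larger share of the cells with Folr2 in 8 of 8 libraries. Both were likewise in a larger share of the cells with Cd163 in 7 of 7 libraries (Mrc1 at medians of 91.3% and 64.5%, Clec10a at 39.1% and 22.0%). In kidney, 4 libraries had enough Folr2-positive cells. There Cd163 (6.47% and 1.16%) and Mrc1 (66.6% and 28.2%) were in a larger share of the cells with Folr2 in 4 of 4 libraries. Clec10a (24.5% and 6.36%) was so in 3 of 4. Over the 23 class means of untreated tissue, Retnla was most like Ccl8 (Pearson r = 0.89), Mrc1 (0.89) and Pf4 (0.85) among 9116 genes, and Folr2 was most like Cd209f (0.93), C1qc (0.86) and Ccl8 (0.85). Cd163 was most like Cd209b (0.92), Mrc1 (0.89) and Mgl2 (0.87), and Mrc1 like Fcrls (0.90), Cd163 (0.89) and Retnla (0.89). Mgl2 was most like Fcrls (0.92), Tnip3 (0.88) and Mrc1 (0.88), and Clec10a like Mrc1 (0.86), Cd209a (0.83) and Cd209d (0.82). Tnip3 and Cd209a were cDC2 gate markers and C1qc a macrophage gate marker. Ear2 was most like Ptpro (0.90), Cd300c2 (0.90) and Cd68 (0.89), and Chil3 like Gm5150, Tmcc1 and Gm9733 (0.82 to 0.83). Arg1 had no gene above r = 0.69, with Cxcl13 first. These are correlations of log2(CPM + 1) across class means that share libraries, given as a description.

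The comparison of skin macrophages after PBS with kidney macrophages after vehicle asked whether these genes differed by tissue. PBS was injected under the skin and vehicle into the peritoneum, so tissue and local injection cannot be told apart. Of the 9 genes, 5 were higher in skin by the edgeR quasi-likelihood test at an adjusted p of 0.05, and none was lower. Over all 10069 genes tested, 31.4% passed, 18.2% as higher and 13.2% as lower in skin. The members' median log2 difference was 2.80 against -0.02 over all genes. Libraries of the tissues did not overlap for 6 of the 9, against 48% of all genes. Zfyve9 stood at 26.0, 11.9 and 621 CPM in skin PBS 1 to 3 and at 10.5 to 32.1 CPM in kidney vehicle. Human ZFYVE9 stood at 845 and 190 CPM in skin PBS 1 and 2 and was not listed in kidney. The part of these SARA transcripts in the tissue differences was not tested. The p-values here and below measure the spread between libraries, and no label says that each came from its own animal.

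Among the surface receptors, 4 of 5 passed. Cd163, at 611, 432 and 297 CPM in skin PBS 1 to 3 and at 14.8, 8.73 and 8.89 CPM in kidney vehicle 1 to 3, was 5.36 ± 0.37 higher on the log2 scale (SE, adjusted p = 9.98e-05). All skin libraries stood above all kidney libraries by a wide margin. Mrc1, at 3472, 2581 and 1961 CPM against 411, 257 and 414 CPM, was 2.83 ± 0.32 higher (adjusted p = 0.00052). Both genes passed in each of the 22 fits run.

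Clec10a (1122, 766 and 189 CPM against 79.8, 34.5 and 62.7 CPM) was 3.47 ± 0.60 higher (adjusted p = 0.0034). Folr2 (667, 369 and 144 CPM against 60.9, 34.1 and 56.9 CPM) was 2.87 ± 0.51 higher (adjusted p = 0.0039). The library labelled skin PBS 3 was the lowest of the skin libraries for all these receptors. In the fit of libraries with the shorter gene list, where skin was represented by PBS 3 alone, assumed to vary like the other libraries, and 9.08% of genes passed, Clec10a (1.78, adjusted p = 0.076) and Folr2 (1.60, adjusted p = 0.074) missed the threshold. Mgl2 (1295, 1175 and 492 CPM against 567, 786 and 617 CPM) overlapped between tissues, with a difference of 0.53 ± 0.34 (adjusted p = 0.26). Without skin PBS 3 it passed (0.83, adjusted p = 0.047).

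**Figure D3:**
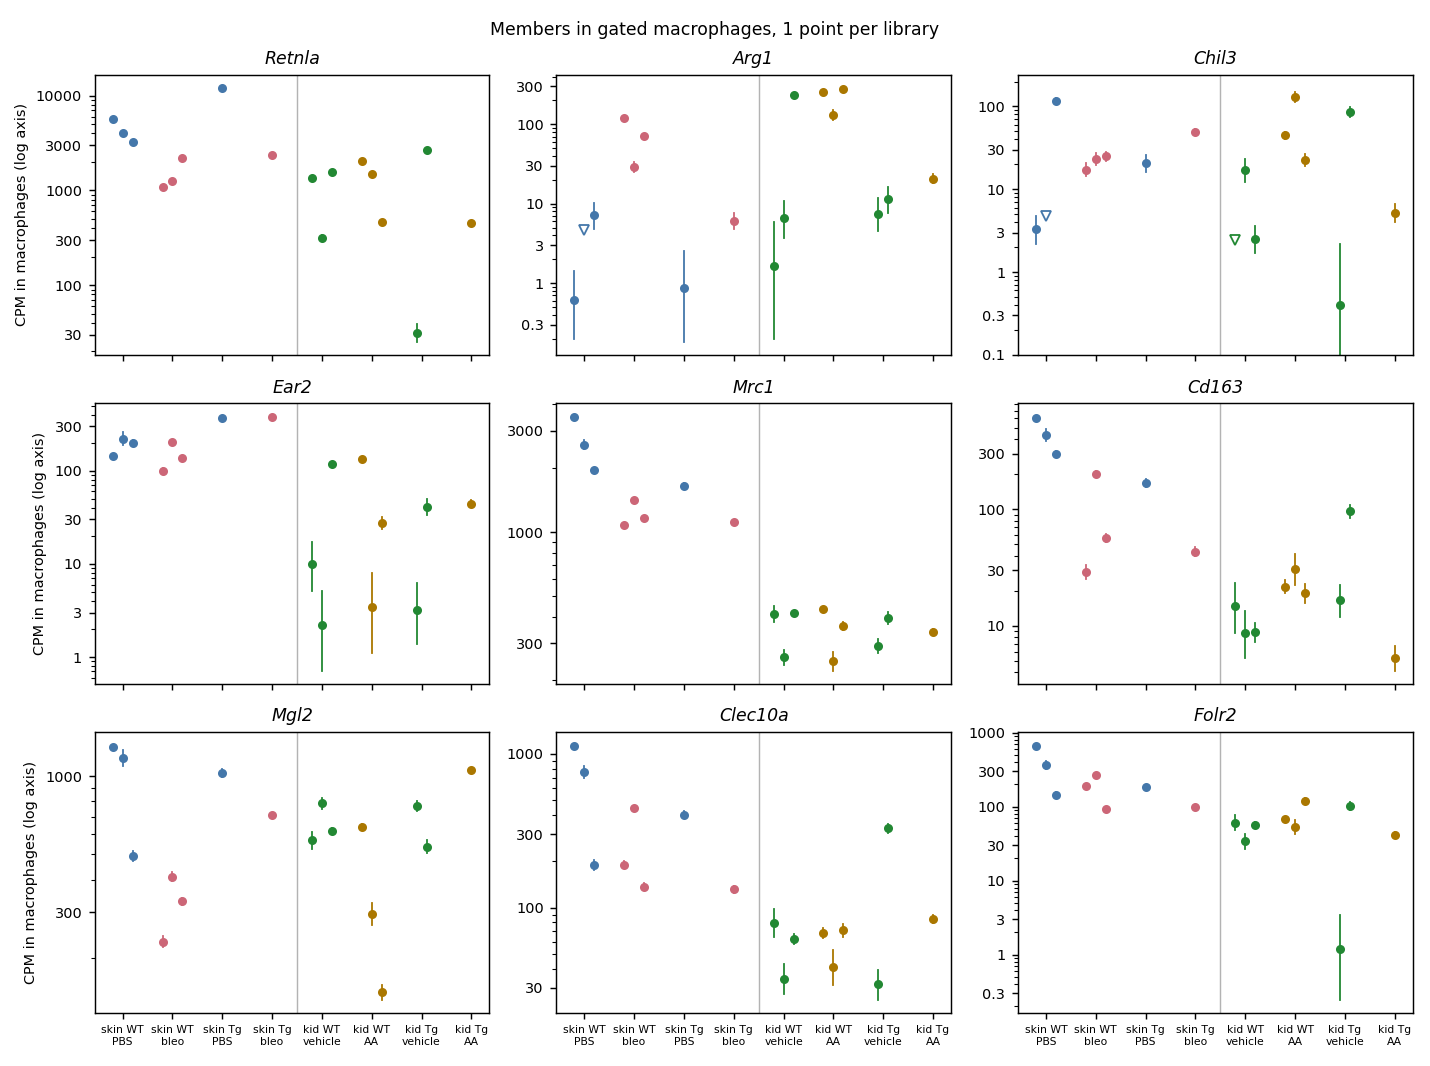
CPM of the 9 genes in gated macrophages, 1 point per library and a logarithmic axis, in SARAWT (WT) and SARATg (Tg) skin and kidney (kid) with PBS, bleomycin (bleo), vehicle or aristolochic acid (AA); bars are exact 95% Poisson intervals of the counts and open triangles mark libraries with no UMI at the level that 3 UMIs would give. The 3 skin WT PBS libraries stood at 297 to 611 CPM of Cd163 and the 3 kidney WT vehicle libraries at 8.73 to 14.8 CPM, and Arg1 in kidney WT vehicle ran from 1.65 to 232 CPM.

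Of the secreted products and Arg1, only Retnla passed. It stood at 5616, 4051 and 3229 CPM in skin PBS 1 to 3 and at 1358, 314 and 1581 CPM in kidney vehicle 1 to 3, and was 1.91 ± 0.54 higher in skin (adjusted p = 0.027). The kidney values came from few cells, with a Retnla UMI in 2.65% of 226, 0.679% of 442 and 18.3% of 915 macrophages in vehicle 1 to 3. The libraries did not overlap, but the call was made in 16 of 22 fits and was lost without skin PBS 1 (adjusted p = 0.079), without skin PBS 2 (adjusted p = 0.065) and without kidney vehicle 1 (adjusted p = 0.074), besides 3 other settings. Ear2 (145, 222 and 200 CPM against 9.87, 2.18 and 119 CPM) did not overlap either, with a difference of 1.90 ± 1.04 (adjusted p = 0.19). Without kidney vehicle 3 it was 5.11 (adjusted p = 0.00092). Arg1 (-4.85 ± 1.71, adjusted p = 0.058) was -0.53 without that library (adjusted p = 0.76), whereas it passed as lower in skin in 7 other settings. Among these were the fits without kidney vehicle 1 (-5.55, adjusted p = 0.032) or vehicle 2 (-5.54, adjusted p = 0.040). Chil3 was at 2.80 ± 1.49 (adjusted p = 0.18), with 116 CPM in the library labelled PBS 3 and no more than 3.30 CPM in PBS 1 and 2.

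In cDC2, where 36.2% of 6826 genes passed, 6 members could be tested and 4 of these passed. Retnla (2.81 ± 0.82, adjusted p = 0.023), Mrc1 (2.52 ± 0.52, adjusted p = 0.0046) and Cd163 (3.17 ± 0.64, adjusted p = 0.0041) were higher in skin, as in macrophages. Clec10a was lower in skin cDC2 (-1.88 ± 0.30, adjusted p = 0.0013), opposite to its difference in macrophages. Mgl2 (0.51 ± 0.30, adjusted p = 0.20) and Ear2 (0.80 ± 0.58, adjusted p = 0.30) did not pass.

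Summed over all cells kept, where composition enters and 39.3% of 16632 genes passed, Cd163 (6.51 ± 0.94), Mrc1 (3.65 ± 1.21), Folr2 (3.47 ± 1.12) and Clec10a (3.31 ± 1.03) passed and the other 5 did not. Myeloid cells were 45.4% ± 5.98 of cells in skin PBS and 13.05% ± 10.6 in kidney vehicle (SD, n = 3 each, exact two-sided permutation p = 0.10, the smallest that 3 against 3 allows).

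**Figure D4:**
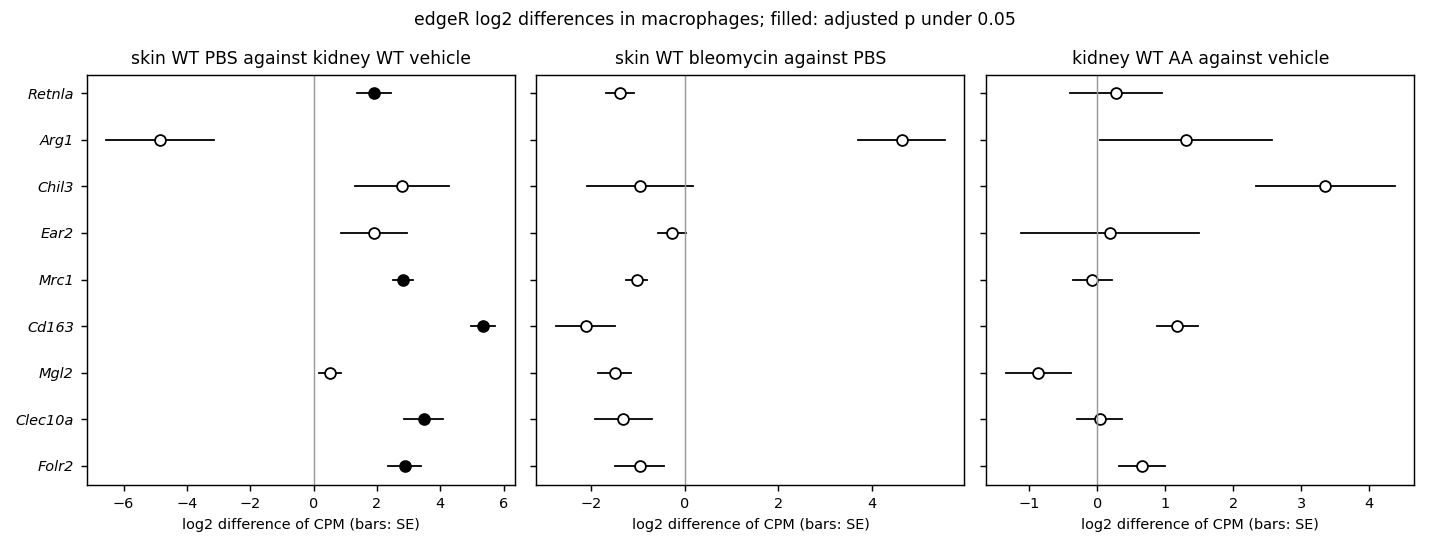
Log2 differences of the 9 genes in macrophages with SE from edgeR, for skin against kidney (left), bleomycin against PBS in skin (middle) and AA against vehicle in kidney (right), all SARAWT with 3 libraries a group; filled points passed an adjusted p of 0.05. On the left 5 points are filled, from Retnla at 1.91 to Cd163 at 5.36, and in the other panels none.

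Other genes of the pathway were counted in the same comparison, in which 18.2% of all genes were higher and 13.2% lower. Of 13 tested genes of interleukin-4 and interleukin-13 signalling, 6 were higher in skin macrophages and none lower, with a median over the list of 0.32. They were the transcription factors Irf4 (4.31 ± 0.42, adjusted p = 0.000285) and Klf4 (3.54 ± 0.71), the cytokine signalling inhibitors Cish (3.08 ± 0.54) and Socs1 (3.04 ± 0.41), Il2rg, the common cytokine receptor chain, and Jak1. Of 16 tested further alternative activation genes, 5 were higher (Cd209e at 7.51, Il1rn at 5.29, Plk2 at 4.09, Egr2 at 2.95 and Ccl24 at 2.81) and 3 lower (Alox15 at -3.60, Ch25h at -2.32 and Itgax at -1.64), with a median of 0.69. Of 15 resident macrophage genes, 7 were higher, led by Cd209d (7.96), F13a1 (4.29) and Cbr2 (4.08), and Vsig4 was lower (-3.48). Of 13 tested classical activation genes, the opposite program by name, 6 were higher as well and none lower. These included the prostaglandin synthase Ptgs2 (9.84), the cytokines Il6 (7.30) and Tnf (4.55), the chemokine Cxcl10 (3.96) and the costimulator Cd80 (2.45). The lists' medians stood beside -0.02 over all genes tested.

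Other markers in the macrophages moved with tissue as well. The 10 classical monocyte markers summed to 1042 to 2508 CPM in skin PBS macrophages and 517 to 896 CPM in kidney vehicle macrophages, with 8 to 10 markers detected per library. The 10 stromal and mural markers summed to 69.1 to 152 CPM and 16.2 to 24.7 CPM, and the 10 proximal tubule markers to 0.950 to 1.56 CPM and 22.4 to 470 CPM. Their part in the tissue differences was not tested.

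The bleomycin comparison asked whether fibrosing skin macrophages carried more or less of each transcript. In the fit without blocks no member passed, and 21 of 10824 genes did (0.194%). Libraries of the groups did not overlap for 5 of 9 members, 4 lower and 1 higher after bleomycin, against 19.3% of all genes. Libraries that share a replicate number deviated together in each of 3 pairs, so the number was also fitted as a block, although bleomycin 2 was closer to PBS 1 than to PBS 2 and number 3 alone deviated against both other numbers. With the block 3.82% of genes passed. In that fit the same 5 members passed: Retnla, Mrc1, Mgl2 and Cd163 as lower and Arg1 as higher after bleomycin. Over the settings other than the fit without blocks, Retnla, Arg1, Mrc1 and Mgl2 each passed in 6 and did not pass in 14. Cd163 passed in 2 and did not pass in 18. Human ZFYVE9 stood at 845 and 190 CPM in PBS 1 and 2 and at 89.3 and 115 CPM in bleomycin 1 and 2. Zfyve9 stood at 621 CPM in PBS 3 and at 9.39 CPM in bleomycin 3. The groups thus differed in SARA transcripts as well as in treatment, and the part of this was not tested.

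Retnla stood at 5616, 4051 and 3229 CPM in PBS 1 to 3 and at 1100, 1270 and 2209 CPM in bleomycin 1 to 3. Every bleomycin library lay below every PBS library. The difference was -1.38 ± 0.31 (adjusted p = 0.12), and -1.44 with the replicate block (adjusted p = 0.039).

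Arg1 had 0.611, 0 and 7.13 CPM in PBS 1 to 3 and 121, 29.1 and 71.2 CPM in bleomycin 1 to 3, and was the only member higher in every bleomycin library. Its difference was 4.64 ± 0.93 (adjusted p = 0.10), and 5.14 with the replicate block (adjusted p = 0.012). Thinned to 1000 UMIs, 0.905% to 4.51% of bleomycin macrophages and 0% to 0.559% of PBS macrophages had an Arg1 UMI (2.73% to 8.64% and 0% to 1.94% without thinning), so at this depth most bleomycin macrophages showed none. In the T, NK and innate lymphoid gate the thinned shares were 0% to 0.694% after bleomycin. They were 5.47% in PBS 1 and 0.696% in PBS 3, above the PBS macrophages.

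Among the receptors, Mrc1 (3472, 2581 and 1961 CPM against 1078, 1408 and 1161 CPM) differed by -1.03 ± 0.22 (adjusted p = 0.11) and by -1.02 with the replicate block (adjusted p = 0.037). Mgl2 (1295, 1175 and 492 CPM against 231, 411 and 330 CPM) differed by -1.50 ± 0.36 (adjusted p = 0.13) and by -1.44 with the block (adjusted p = 0.041). Cd163 (611, 432 and 297 CPM against 29.1, 202 and 56.7 CPM) differed by -2.12 ± 0.63 (adjusted p = 0.20) and by -2.52 with the block (adjusted p = 0.036). In all of them the bleomycin libraries lay below the PBS libraries.

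Clec10a (190, 442 and 137 CPM after bleomycin, -1.32 ± 0.61), Folr2 (192, 272 and 93.5 CPM, -0.97 ± 0.52), Ear2 (100.2, 202 and 138 CPM, -0.28 ± 0.30) and Chil3 (17.3, 23.2 and 24.9 CPM, -0.96 ± 1.14) overlapped with PBS and did not pass with or without the block. Chil3 was the member that turned its direction most, since the library labelled PBS 3 held 116 CPM and the other PBS libraries at most 3.30 CPM. Without PBS 3, where 5.57% of genes passed, it was 3.14 higher after bleomycin (adjusted p = 0.015), and Retnla (-1.50), Arg1 (7.19), Mrc1 (-1.16) and Mgl2 (-1.79) passed as well. With the libraries numbered 1 and 2 alone, a choice made after the values were seen, 12% of genes passed and 7 members with them, Clec10a (-1.45) and Folr2 (-1.04) included and Cd163 (-2.06, adjusted p = 0.090) not. DESeq2, in which 3.09% of genes passed, called Retnla, Arg1, Mrc1 and Mgl2. With shared barcodes left out, the Retnla difference was -2.01 (adjusted p = 0.245).

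Markers of other myeloid classes moved with the groups in these macrophages. The 10 nonclassical monocyte markers summed to 53.1 to 109 CPM in PBS and 158 to 249 CPM in bleomycin macrophages, the 10 classical monocyte markers to 1042 to 2508 CPM and 2313 to 2835 CPM, and the 10 stromal markers to 69.1 to 152 CPM and 43.8 to 55.0 CPM. Their part in the member differences was not tested. Macrophages were 34.1% ± 17.1 of myeloid cells in PBS and 37.4% ± 12.03 in bleomycin (SD, n = 3 each, exact two-sided permutation p = 0.80).

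In skin cDC2 no gene passed in the fit without blocks (0 of 9938, 0%, with 1225 at an unadjusted p under 0.05), and 3 members did not overlap between groups, against 19% of all genes. Clec10a was at 147, 113 and 139 CPM in PBS and 420, 328 and 305 CPM in bleomycin, all bleomycin libraries being higher (1.44 ± 0.19, adjusted p = 0.12). Retnla (189, 230 and 176 CPM against 2.59, 24.0 and 45.2 CPM, -2.97 ± 0.66, adjusted p = 0.23) and Cd163 (239, 341 and 215 CPM against 46.0, 89.0 and 83.1 CPM, -1.83 ± 0.30, adjusted p = 0.17) were lower in every bleomycin library.

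Of the other pathway lists, 1 gene passed in bleomycin macrophages without the block. Cd36, a scavenger receptor for lipids among the further alternative activation genes, was lower (-2.29 ± 0.33, adjusted p = 0.049). None of the 14 tested genes of interleukin-4 and interleukin-13 signalling, the 14 of the resident list or the 13 of the classical list passed. The medians of these lists were 0.016, -1.40 and 0.18 against -0.00044 over all genes. No member passed in this fit either, and values of the lists with the block are not given here.

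The AA comparison asked the same of kidney. In macrophages no gene passed in edgeR (0 of 10498, 0%, with 671 at an unadjusted p under 0.05) and 34 passed in DESeq2. Of the members, 2 did not overlap between groups, against 11.1% of all genes. Chil3 stood at 0, 17.03 and 2.50 CPM in vehicle 1 to 3 and at 44.6, 130.2 and 22.4 CPM in AA 1 to 3, all AA libraries being higher (3.36 ± 1.02, adjusted p = 0.74). These values came from few cells. A Chil3 UMI was found in 0%, 0.679% and 0.874% of vehicle and 5.64%, 1.67% and 8.96% of AA macrophages, and the library with the highest CPM, AA 2, had 120 macrophages. Thinned to 1000 UMIs the shares were 0% to 0.679% in vehicle and 0.847% to 1.75% in AA, and at most 0.276% in the T, NK and innate lymphoid gate of these libraries. Cd163 stood at 14.8, 8.73 and 8.89 CPM and at 21.8, 31.0 and 19.1 CPM (1.18 ± 0.30, adjusted p = 0.74).

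Arg1 in this comparison turned on a single library. It stood at 257, 132 and 280 CPM in AA 1 to 3 and at 1.65 and 6.55 CPM in vehicle 1 and 2, but at 232 CPM in vehicle 3, so that the groups overlapped (1.31 ± 1.27, adjusted p = 0.82). Without vehicle 3, where 11.6% of 9839 genes passed, the difference was 5.62 (adjusted p = 0.0037). Without both vehicle 3 and AA 1, where 8.51% of genes passed, it was 5.49 (adjusted p = 0.0064), and Mgl2 passed as lower (-1.56, adjusted p = 0.049). The fit without both was added after the values were seen. Thinned, 6.78% to 10.2% of AA macrophages had an Arg1 UMI (11.7% to 29.2% without thinning), against 0% to 5.79% in vehicle, and at most 0.0920% in the T, NK and innate lymphoid gate after AA.

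Retnla (2025, 1506 and 464 CPM after AA, 0.28 ± 0.68), Ear2 (134, 3.45 and 27.7 CPM, 0.19 ± 1.31), Mrc1 (433, 247 and 362 CPM, -0.073 ± 0.29), Mgl2 (637, 295 and 147 CPM, -0.87 ± 0.48), Clec10a (68.2, 41.3 and 71.0 CPM, 0.035 ± 0.33) and Folr2 (68.0, 53.7 and 121 CPM, 0.66 ± 0.34) overlapped with vehicle. Ear2 turned on single libraries as well (9.87, 2.18 and 119 CPM in vehicle), at 3.56 without vehicle 3 (adjusted p = 0.14) and -1.57 without AA 1 (adjusted p = 0.89). The 10 B cell markers summed to 423 to 1510 CPM in vehicle macrophages and to 300.2, 14411 and 2589 CPM in AA 1 to 3, and their part was not tested. Classical monocytes, the main carriers of Chil3, were 6.85% ± 0.34 of myeloid cells in vehicle and 11.5% ± 1.99 in AA (SD, n = 3 each, exact two-sided permutation p = 0.10). Within them Chil3 was at 566 to 6088 CPM in vehicle and 1230 to 2588 CPM in AA (-0.47 ± 0.58, adjusted p = 0.999). No gene of the other 4 lists passed in AA macrophages.

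The difference between the bleomycin effect in skin and the AA effect in kidney was tested as an interaction over 12 SARAWT libraries, and 4 of 11742 genes passed (0.0341%), none of them a member. Cd163 came closest (-3.29 ± 0.80, adjusted p = 0.21), the separate differences being -2.12 after bleomycin and 1.18 after AA. It passed in 2 of 16 fits, by DESeq2 (adjusted p = 0.0044) and without skin bleomycin 2 (-4.39, adjusted p = 0.021). For Arg1 the difference was 3.33 ± 1.84 (adjusted p = 0.67), and it was -1.004 without kidney vehicle 3 (adjusted p = 0.78) and 5.89 without skin PBS 3 (adjusted p = 0.35).

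The SARA transgene was tested in kidney vehicle alone, with 2 SARATg and 3 SARAWT libraries. No gene passed in macrophages in edgeR (0 of 9947, 0%, with 332 at an unadjusted p under 0.05), and 9 passed in DESeq2. Cd163 did not overlap, at 16.6 and 95.7 CPM in SARATg against 8.73 to 14.8 CPM in SARAWT (2.33 ± 0.65, adjusted p = 0.99), as did 19.4% of all genes. Without SARATg vehicle 2 the difference was 0.63. The 2 SARATg libraries stood far apart from each other. Retnla was at 31.7 CPM in the first and 2661 CPM in the second, Folr2 at 1.19 and 103.9 CPM, Clec10a at 31.7 and 328 CPM and Chil3 at 0.396 and 86.4 CPM. In the first of them Retnla was carried outside the macrophage gate, since 94.5% of its Retnla UMIs lay in myeloid cells without a class, at 2468 CPM.

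The counting of near-identical genes limits some of these values. Of the 50-base words in the last 400 bases of the transcripts, 27.4% of those of Ear2 were shared with Ear1, Ear10, Ear6 or pseudogenes, 12.9% of those of Clec10a with Mgl2 and 8.66% of those of Chil3 with Chil4 or a predicted gene, and none of those of Retnla, Arg1, Mrc1 or Folr2 with any other gene. For Mgl2 and Cd163 the shares were 3.14% and 1.14%, with genes outside the 9. Reads within shared words could not be assigned to a single gene by the counting. Of the paralogs, Retnlg, a secreted relative of Retnla known from neutrophils, was at 1706 to 32564 CPM in kidney neutrophils and at no more than 106 CPM in kidney macrophages. Arg2, the mitochondrial arginase, was at 595 to 963 CPM in skin neutrophils and at 2.32 to 116 CPM in skin macrophages.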

How the data were processed

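The authors deposited unnormalized UMI counts per gene and cell barcode, made with Cell Ranger, for which the headers give versions 4.0.0, 3.1.0 and 3.0.2 and the submitters' notes 3.0.2, with Seurat 2.3.4 and mm10. The totals were 3355217 to 137093834 UMIs per library. Barcodes under 200 detected genes or over 20% mitochondrial UMIs were dropped, which left 91829 of 107534. A cell belonged to a lineage with UMIs of at least 4 of its 10 markers and at most 0.5 times as many of any other, and to a myeloid class with at least 4 of 10 markers and a lead of 2; no doublet caller was run, and 11555 cells without a lineage, mixed cells included, were left out. Counts were summed per library and class (at least 10 cells) and tested in edgeR 4.0.16 by the two-sided quasi-likelihood test after filterByExpr and TMM scaling, with Benjamini-Hochberg adjustment over all genes tested and a threshold of 0.05. DESeq2 1.42.0 and the other settings of the closing section were alternatives.

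The replicate block of the bleomycin comparison was chosen from the same counts, in which same-numbered macrophage sums deviated together (r = 0.23, 0.22 and 0.51 over 10824 genes). Pairs of different numbers had r from -0.464 to 0.317, the highest between bleomycin 2 and PBS 1, so the data do not separate numbers 1 and 2. Number 3 coincides with the shorter gene list and with Ddx3y in place of Xist transcripts. When 200 genes of simulated counts were shifted by 2 on the log2 scale, the fits of the tissue, bleomycin, AA and transgene comparisons recovered 65%, 71.5%, 63.5% and 55%, with 1.5%, 8.3%, 5.9% and 9.1% false calls. Intervals and floors (3 counts) cover counting error only. The members and lists were chosen with earlier results of these data known. Named genes are the members, list genes past the threshold (up to 5 per list and direction), the 3 genes most like each member, and paralogs.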

Additional observations from a re-analysis of the deposited data

Results flagged for a closer look

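The single SARATg libraries of skin and of kidney after AA entered no test of the transgene, and member levels in their macrophages lay both above and below all SARAWT libraries of the same treatment. In skin SARATg PBS, Retnla stood at 12147 CPM, 2.16 times the highest SARAWT PBS library, and Ear2 at 366 CPM (1.65 times). In skin SARATg bleomycin, Chil3 stood at 49.1 CPM (1.97 times), Ear2 at 376 CPM (1.86 times), Mgl2 at 708 CPM (1.72 times) and Retnla at 2349 CPM (1.06 times the highest SARAWT bleomycin library). In kidney SARATg AA, Mgl2 stood at 1055 CPM (1.66 times) and Clec10a at 84.0 CPM (1.18 times). Other members lay below every SARAWT library of the treatment, the lowest of which is given second. They were Mrc1 (1649 and 1961 CPM) and Cd163 (168 and 297 CPM) in skin SARATg PBS. In skin SARATg bleomycin they were Arg1 (6.04 and 29.1 CPM) and Clec10a (132 and 137 CPM). In kidney SARATg AA they were Retnla (449 and 464 CPM), Arg1 (20.7 and 132 CPM), Chil3 (5.17 and 22.4 CPM), Cd163 (5.34 and 19.1 CPM) and Folr2 (41.1 and 53.7 CPM). An Arg1 UMI was found in 0.546% of the macrophages of this library and in 6.78% to 10.2% of those of SARAWT AA, all thinned to 1000 UMIs. These differences were not tested, and Zfyve9 in the libraries labelled skin SARAWT PBS 3 and kidney SARATg AA went against the labels. No share over all genes is given for these single libraries, so the members cannot be set apart from their general scatter. The SARATg skin libraries shared the shorter gene list and the Ddx3y transcripts with PBS 3 and bleomycin 3 but not with the other 4 SARAWT skin libraries, and the part of this in the ratios was not tested. Retnla stood at 3229 CPM in SARAWT PBS 3, and the highest SARAWT PBS library, PBS 1, had the longer list, high Xist and human ZFYVE9 at 845 CPM. The highest SARAWT AA library for Mgl2, AA 1 (637 CPM), had Zfyve9 at 164 CPM, and AA 2 and 3 stood at 295 and 147 CPM of Mgl2. Kidney SARATg AA had Xist at 1357 CPM and Ddx3y at 0.0363 CPM. SARAWT AA 1 to 3 had Ddx3y at 53.6 to 57.7 CPM and Xist at most at 0.276 CPM, and the part of this was not tested.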

How the results depend on the processing

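With each library left out in turn, the number of genes called ran from 2102 to 3311 for tissue (main count 3166), from 0 to 633 for bleomycin (21), from 0 to 1142 for AA (0), from 0 to 1 for the transgene (0) and from 0 to 189 for the interaction (4). For tissue, 5318 were called with SARATg controls added, 5228 with all 17 libraries and 1013 with the shorter gene list. For bleomycin, 335 were called by DESeq2, 414 with the replicate block, 393 without a filter, 6 without shared barcodes, 3 in all myeloid cells, 537 with the gene list as covariate and 1341 with libraries 1 and 2 alone. For AA, 34 were called by DESeq2, 1 without a filter and 791 without vehicle 3 and AA 1; for the transgene, 9 by DESeq2 and 15 with the block; for the interaction, 118 by DESeq2 and 269 without skin PBS 3, kidney vehicle 3 and AA 1. Outside the bleomycin comparison same-numbered libraries did not all deviate together (r from -0.187 to 0.245), and they share a number only. In the tissue comparison the same-numbered pairs had r = 0.034, 0.044 and 0.158, and PBS 1 with vehicle 2 had 0.092. The replicate block called 3067 genes for tissue, Arg1 among them (-4.36, adjusted p = 0.0078).

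Directions that turned, as log2 differences: for tissue, Chil3 at -2.59 in all myeloid cells and Mgl2 at -0.31 with the shorter list. For bleomycin, Chil3 at 0.51 with the replicate block, 0.52 with the gene list covariate and 2.96 in libraries 1 and 2 alone (-1.56 to 3.14 leaving out libraries), and Ear2 at 0.028 in all myeloid cells. For AA, in all myeloid cells Chil3 at -0.40, Mrc1 at 0.13, Ear2 at -0.085 and Clec10a at -0.49; Clec10a at -0.021 with stricter cell filters and Mrc1 at 0.014 where a lineage had to lead any other by 2 markers in place of having 2 times as many; leaving out libraries, Clec10a -0.24 to 0.23, Ear2 -1.57 to 3.56, Mrc1 -0.28 to 0.11 and Retnla -0.16 to 0.75. For the transgene with the replicate block, Retnla at -1.04, Arg1 at 1.14, Mrc1 at 0.064 and Ear2 at 1.84; leaving out libraries, Arg1 -3.89 to 1.03, Chil3 -3.95 to 3.65, Clec10a -0.93 to 2.37, Ear2 -4.00 to 2.03, Folr2 -5.42 to 0.92, Mgl2 -0.40 to 0.20, Mrc1 -0.39 to 0.041 and Retnla -5.16 to 1.16. For the interaction, Chil3 at 0.15 without the 3 libraries; leaving out libraries, Arg1 -1.004 to 5.89, Ear2 -3.79 to 1.31 and Mgl2 -0.997 to 0.085. Leaving out libraries, the macrophage share of myeloid cells differed by -5.47 to 11.6 points for bleomycin and -7.49 to 2.27 for AA, and the classical monocyte share by -0.86 to 3.32 for bleomycin. The cause of these changes was not tested. Depth limits low levels, since a skin library without an Arg1 or Chil3 UMI in macrophages allows up to 4.69 CPM.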
